A study of Sus scrofa with 8 samples.

Results

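The major histocompatibility complex (MHC) class II genes of the pig, named SLA for swine leukocyte antigen, were followed in the endometrium, the inner lining of the uterus, on day 14. The gene set was defined by pig symbols for the classical class II chains, the DM and DO chains, the invariant chain CD74 and the transactivator CIITA. Of the 10 genes listed, 8 had a transcript in the count tables, out of 21064 Entrez genes in all, and each had 1 transcript. CD74 and CIITA matched no transcript by Entrez gene ID and are not analysed here.

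In all, 4 pregnant gilts (young female pigs) were set against 4 non-pregnant controls, all of the German Landrace breed, and each library stands for 1 animal. All gilts were brought to ovulation before puberty with 750 IU of PMSG and, 72 h later, 500 IU of hCG. The pregnant gilts received Pietrain semen 24 h and 36 h after hCG, and the control gilts received the sperm-free supernatant of semen from the same boar. Sampling followed the reddened zones of embryo attachment in pregnant uteri and matching places in control uteri, so pregnancy and the choice of reddened tissue cannot be told apart. RNA from 3 places of 1 uterine horn was pooled per animal, and the muscle layer was left out.

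Class II molecules are pairs of an alpha and a beta chain that carry peptides from the endosomes to the surface of antigen-presenting cells, where CD4 T cells read them. DR and DQ are the classical pairs that reach the surface, DM is an endosomal pair that removes a fragment of the invariant chain and edits the bound peptides, and DO binds DM and inhibits it. Dendritic cells, macrophages and B cells hold class II all the time, and many other cells make it after exposure to interferon gamma, which acts through CIITA. In pigs the elongating conceptus secretes interferon gamma at about the time of attachment, and trophoblast is generally poor in class II.

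Total counts ran from 29009827 to 41016150 in the pregnant libraries and from 28035007 to 32639743 in the control libraries, and every class II transcript was covered by at least 106 reads in each library. Of the 18783 transcripts that could be tested, 4009 (21.3%) passed an adjusted p of 0.05 in edgeR's quasi-likelihood test, 2111 of them higher in pregnant animals (11.2%) and 1898 lower (10.1%). Leaving out pregnant replicate 2 reduced the lower ones to 1265. Epithelial and stromal genes were abundant in both groups, as in endometrium, with the epithelial adhesion gene EPCAM (named after its values were seen) at 116 ± 20.6 CPM in pregnant and 144 ± 43.8 CPM in control animals and vimentin (VIM) at 1909 ± 293 CPM in pregnant and 1575 ± 388 CPM in control animals (SD, n = 4 each). CPM are counts scaled to a common library size. EPCAM does not stand for all epithelial markers, of which 1 of 10 tested was higher and 4 were lower in pregnant animals.

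All 8 class II transcripts were higher in pregnant endometrium, beside 11.2% of all transcripts tested. Their log2 changes, pregnant over control, lay between 2.08 and 3.03 with a median of 2.56, while the median over all transcripts tested was −0.023. A log2 change of at least 2 was found for 2.74% of the transcripts tested, 515 in number. For 7 of the 8 the lowest pregnant library lay above the highest control library, where 13.2% of all transcripts tested did so (26.1% were apart in either direction), and SLA-DOB was the exception. Together the 8 transcripts made up 0.211%, 0.282%, 0.295% and 0.274% of all counts in pregnant replicates 1 to 4 and 0.0614%, 0.0312%, 0.0552% and 0.0492% in control replicates 1 to 4. In whole tissue, more class II cells and more class II RNA per cell cannot be told apart.

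**Figure D1:**
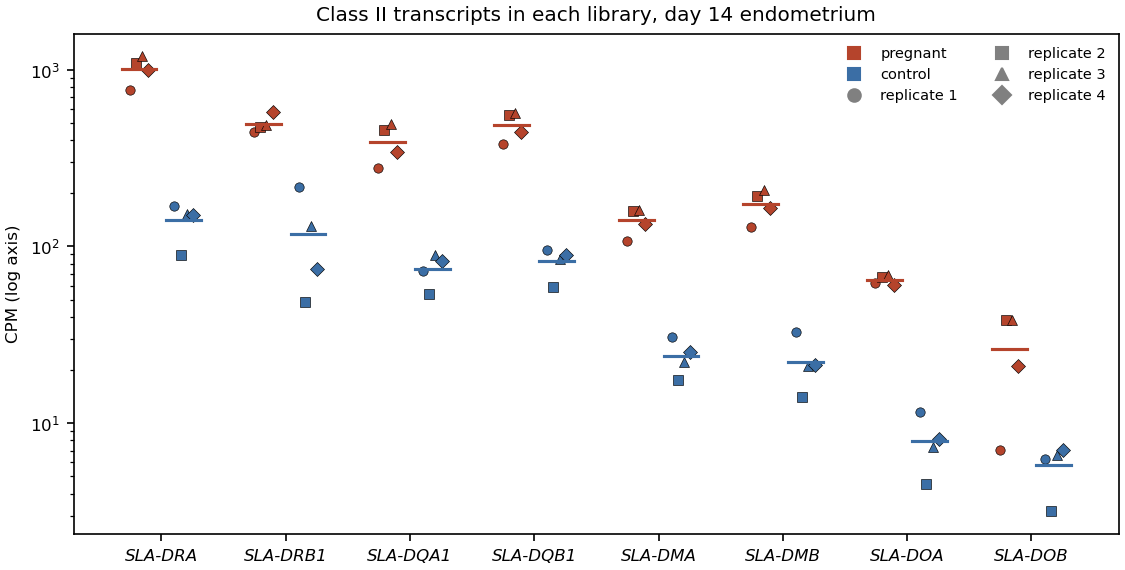
CPM on a log axis for the 8 class II transcripts, with 1 point per library (shape gives the replicate) and a bar at the mean of the 4 pregnant or 4 control libraries. The pregnant points lie above all control points except for SLA-DOB, where pregnant replicate 1 stood at 7.04 CPM among the controls.

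SLA-DRA encodes the DR alpha chain, which varies little between animals of a species (Entrez gene 100135040; chromosome 7, 29036551 to 29042146 on build Sscrofa10.2, plus strand, 5 exons). It had 766, 1084, 1186 and 992 CPM in pregnant replicates 1 to 4, against 170.1, 89.4, 152 and 151 CPM in control replicates 1 to 4. Every pregnant library was several times higher than every control library, and the log2 change was 2.84 ± 0.22 (SE; edgeR adjusted p = 1.78e-05). Per kilobase of exon it was the most abundant of the 8 in pregnant animals, at rank 101 of the 18783 transcripts tested, against rank 801 in controls.

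SLA-DRB1 encodes the DR beta chain, the polymorphic partner of the DR alpha chain (Entrez gene 100153386; chromosome 7, 29112882 to 29125493, minus strand, 6 exons). Its levels were 445, 474, 485 and 578 CPM in pregnant replicates 1 to 4, and 217, 48.7, 129.9 and 74.3 CPM in control replicates 1 to 4. The pregnant libraries were close together, with the highest 1.3 times the lowest, while the controls spread 4.45-fold, the widest control spread among the 8 transcripts. The log2 change of 2.08 ± 0.40 (edgeR adjusted p = 0.00522) was the smallest of the set, and it was 2.58 without control replicate 1, the highest control, and 1.82 without control replicate 2, the lowest. The build gives a single reference allele of this polymorphic gene, which has close relatives beside it, and how reads were counted is not stated. The share of reads that belongs to SLA-DRB1 is therefore uncertain. How far this limit also holds for the DQ chains was not tested.

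Both chains of the DQ pair rose. SLA-DQA1, the alpha chain (Entrez gene 100153387; chromosome 7, 29164988 to 29170807, plus strand), had 276, 455, 492 and 343 CPM in pregnant replicates 1 to 4, against 73.0, 53.5, 89.2 and 82.7 CPM in control replicates 1 to 4. SLA-DQB1, the beta chain (Entrez gene 100037921; chromosome 7, 29180533 to 29188738, minus strand), had 379, 553, 565 and 445 CPM in the pregnant and 95.2, 59.0, 85.2 and 89.3 CPM in the control replicates. In both chains pregnant replicate 1 was the lowest pregnant and control replicate 2 the lowest control library. The log2 changes were 2.39 ± 0.22 for SLA-DQA1 and 2.56 ± 0.19 for SLA-DQB1, with edgeR adjusted p = 4.81e-05 and 1.57e-05.

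The DM chains, which load and edit peptides, rose with the classical chains. SLA-DMA (Entrez gene 445528; chromosome 7, 29500108 to 29504528, minus strand) had 107, 159.6, 161 and 134 CPM in pregnant replicates 1 to 4, against 30.6, 17.6, 22.2 and 25.2 CPM in control replicates 1 to 4. SLA-DMB (Entrez gene 100135050; chromosome 7, 29485889 to 29491701, minus strand) had 128, 192, 209.8 and 164 CPM in the pregnant and 32.6, 14.0, 21.2 and 21.4 CPM in the control replicates. The groups stood well apart for both, with log2 changes of 2.55 ± 0.20 and 2.96 ± 0.25 (edgeR adjusted p = 1.69e-05 and 3.33e-05).

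The DO chains, whose product inhibits DM, also rose, but they differed in how evenly the pregnant animals showed it. SLA-DOA (Entrez gene 100157996; chromosome 7, 29545478 to 29549277, minus strand) had 62.0, 66.9, 69.2 and 60.3 CPM in pregnant replicates 1 to 4, against 11.6, 4.52, 7.3 and 8.13 CPM in control replicates 1 to 4. Its pregnant values lay within 1.15-fold of each other, the tightest of the 8, and its log2 change of 3.03 ± 0.24 was the largest (edgeR adjusted p = 2.06e-05). SLA-DOB (Entrez gene 100135049; chromosome 7, 29242919 to 29249407, minus strand) had 7.04, 38.1, 38.5 and 21.0 CPM in pregnant replicates 1 to 4, and 6.27, 3.17, 6.57 and 7.1 CPM in control replicates 1 to 4. Pregnant replicate 1, with 199 reads, lay at the level of the controls, and the other 3 pregnant libraries lay above all of them. The log2 change of SLA-DOB was 2.18 ± 0.49 (edgeR adjusted p = 0.0112). It lay between 1.94, without pregnant replicate 2 or 3, and 2.50, without pregnant replicate 1, when single libraries were left out, and passed in each case.

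The order of levels can be compared between genes per kilobase of exon. On that scale pregnant animals held SLA-DRA at 806 ± 143, SLA-DQB1 at 407 ± 74.8, SLA-DRB1 at 405 ± 47.3 and SLA-DQA1 at 302 ± 77.0 CPM per kb (SD, n = 4). The DM chains followed at 134 ± 24.3 (SLA-DMA) and 126 ± 25.8 (SLA-DMB), and the DO chains at 33.4 ± 2.15 (SLA-DOA) and 29.3 ± 16.9 CPM per kb (SLA-DOB). SLA-DRA stood above the other classical chains, and SLA-DQA1 lay below SLA-DRB1 by more than the SD of either. The means of SLA-DQB1 and SLA-DRB1, of the DM chains and of the DO chains differed by less than the larger SD of each pair. Control animals had SLA-DRA at 113 ± 28.3, SLA-DRB1 at 96.1 ± 61.0, SLA-DQB1 at 68.8 ± 13.4 and SLA-DQA1 at 57.6 ± 12.0 CPM per kb. Below them in controls came SLA-DMA at 22.8 ± 5.18, SLA-DMB at 16.2 ± 5.57, SLA-DOB at 6.47 ± 1.98 and SLA-DOA at 4.08 ± 1.51 CPM per kb. The classical chains thus lay above DM, and DM above DO, in both groups.

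The balance between partner chains differed from pair to pair, and no test was run on these ratios. SLA-DMB over SLA-DMA, per kilobase of exon, was 0.911, 0.918, 0.989 and 0.933 in pregnant replicates 1 to 4, against 0.812, 0.604, 0.727 and 0.646 in control replicates 1 to 4. The DM ratio was thus nearer to equal amounts in every pregnant library than in any control library. SLA-DQB1 over SLA-DQA1 lay between 1.25 and 1.49 in pregnant and between 1.04 and 1.42 in control libraries, and these ranges overlap. SLA-DRB1 over SLA-DRA lay between 0.418 and 0.596 in pregnant libraries, against 1.31, 0.557, 0.873 and 0.502 in control replicates 1 to 4. In control replicate 1 the beta chain exceeded the alpha chain, which it did in no other library.

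SLA-DOB over SLA-DOA was 0.246, 1.23, 1.21 and 0.755 in pregnant replicates 1 to 4, and 1.17, 1.52, 1.95 and 1.89 in control replicates 1 to 4. This ratio spanned 7.92-fold over the 8 libraries, the widest of the 7 ratios computed, with pregnant replicate 1 at the low end. Among alpha chains, SLA-DMA over SLA-DOA lay between 3.18 and 4.39 in pregnant and between 4.85 and 7.16 in control libraries, without overlap. Among beta chains, SLA-DMB over SLA-DOB was 11.8, 3.27, 3.52 and 5.05 in pregnant replicates 1 to 4, against 3.37, 2.85, 2.09 and 1.95 in control replicates 1 to 4. The amount of DM message relative to DO message was therefore lower in pregnant libraries by the alpha chains and mostly higher by the beta chains. SLA-DQA1 over SLA-DRA lay between 0.333 and 0.405 in pregnant and between 0.414 and 0.578 in control libraries.

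**Figure D2:**
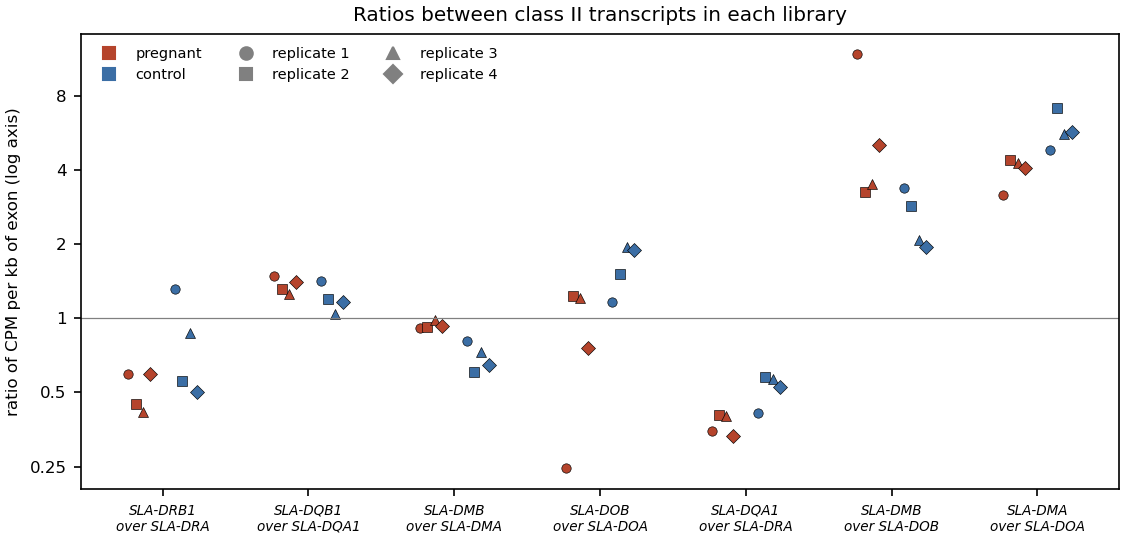
Ratios of CPM per kilobase of exon between class II transcripts on a log axis, with 1 point per library and the line at equal amounts. Pregnant replicate 1 stands at 0.246 for SLA-DOB over SLA-DOA and at 11.8 for SLA-DMB over SLA-DOB, and control replicate 1 at 1.31 for SLA-DRB1 over SLA-DRA.

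Libraries kept much the same standing from gene to gene. Pregnant replicate 1 was the lowest pregnant library for 7 of the 8 transcripts, SLA-DOA being the exception, and pregnant replicate 3 the highest for 7, SLA-DRB1 being the exception. Control replicate 2 was the lowest control library for all 8, at −1.04 to −0.41 log2 units from the control mean, and control replicate 1 the highest for 6. The largest single deviation from a group mean was that of SLA-DOB in pregnant replicate 1, at −1.62 log2 units, followed by SLA-DRB1 in control replicate 1 at 1.11. Summed over the 8 transcripts, the levels were 2170.3, 3023, 3208 and 2738 CPM in pregnant replicates 1 to 4, against 636, 290.0, 514 and 459.7 CPM in control replicates 1 to 4.

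**Figure D3:**
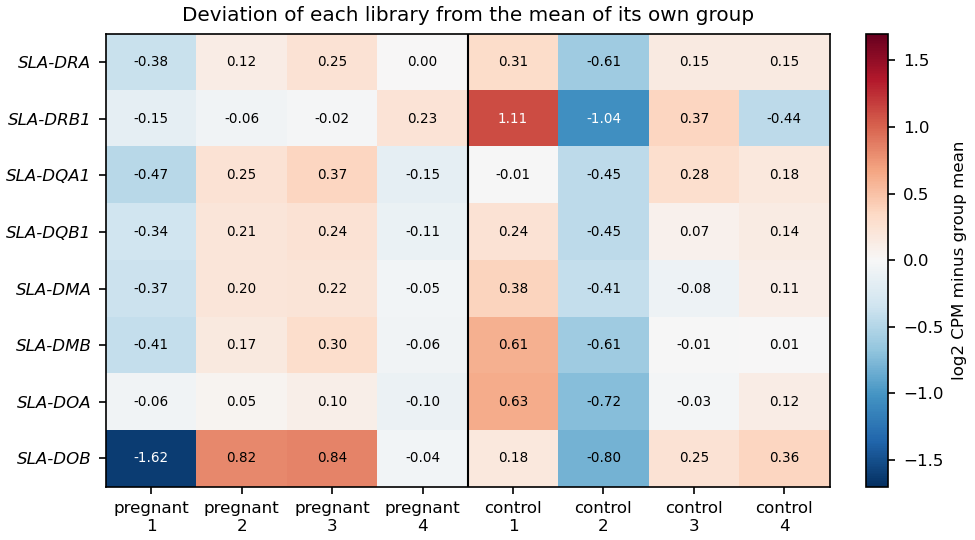
Deviation of each library from the mean log2 CPM of its own group, with class II transcripts in rows and libraries in columns (red above, blue below the group mean). Control replicate 2 is below its group in all 8 rows, and SLA-DOB in pregnant replicate 1 is the deepest blue at −1.62.

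All 8 genes lie on chromosome 7 within 513 kb, from the start of SLA-DRA to the end of SLA-DOA on Sscrofa10.2. None of them shares exonic bases with another gene in the deposited annotation. The same stretch holds 17 other tested genes, of which 16 were higher in pregnant animals, with log2 changes between 2.0 and 2.81, and 1 did not pass. The peptide transporter genes TAP1 (2.78 ± 0.20) and TAP2 (2.06 ± 0.19) and the immunoproteasome genes PSMB8 (2.28 ± 0.26) and PSMB9 (2.81 ± 0.27), which serve MHC class I, were among them. Another 12 of the 16 have no symbol or a LOC identifier only, so their products are not named here.

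The gene that did not pass was BRD2, a chromatin reader of the bromodomain family that lies between SLA-DMA and SLA-DOA. It had 396, 379, 360.3 and 377 CPM in pregnant replicates 1 to 4 and averaged 378 ± 14.6 CPM, against 353 ± 19.7 CPM in controls (SD, n = 4 each). Its log2 change was 0.10 ± 0.10 (edgeR adjusted p = 0.525), between a DM gene at 2.55 and a DO gene at 3.03. Beyond SLA-DOA, up to COL11A2, 5 genes were tested, of which 0 were higher and 3 lower, with log2 changes between −0.59 and −0.38. Each of these 3 calls was lost under at least 4 of the 15 alternatives.

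**Figure D4:**
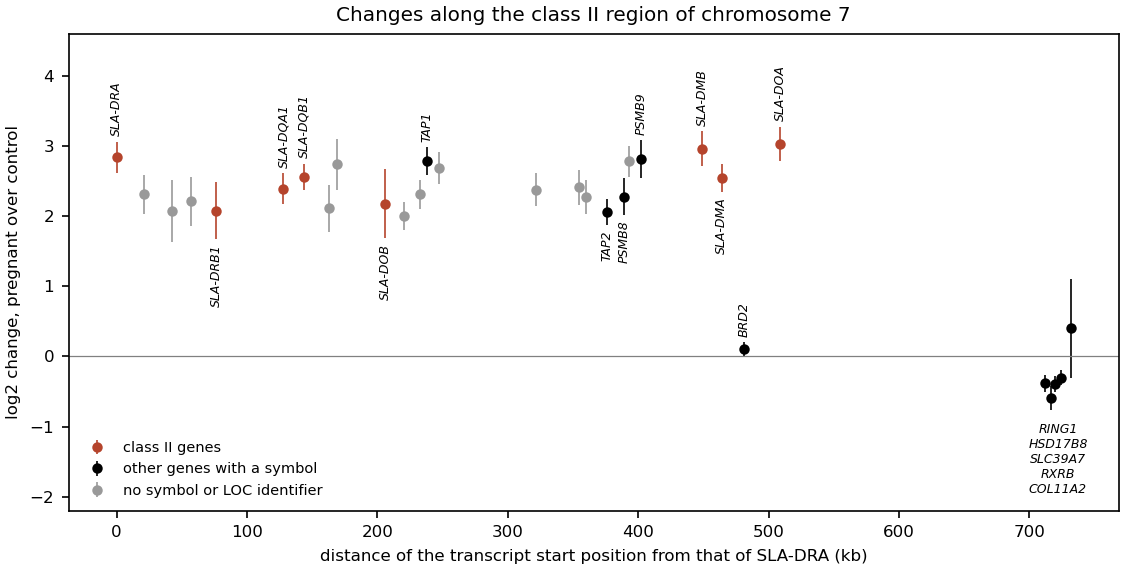
Log2 change with its SE for each tested gene of the class II region, against the distance of its start position from that of SLA-DRA in kilobases. Class II genes and most others sit between 2 and 3.03, while BRD2 at 0.10 and the genes beyond SLA-DOA lie near or below 0.

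Unnamed models beside SLA-DRB1 and SLA-DOB shared parts of the order of libraries seen in those genes. LOC100153139, between SLA-DRA and SLA-DRB1, had 316, 340.1, 363 and 420.3 CPM in pregnant replicates 1 to 4, and 140.2 and 36.9 CPM in control replicates 1 and 2, the highest and lowest controls as for SLA-DRB1. LOC100153969 had 71.5, 91.0, 73.5 and 95.1 CPM in pregnant replicates 1 to 4, and 40.5 CPM in control replicate 1 and 8.51 CPM in control replicate 2. Its log2 change was 2.07 ± 0.44, and that of LOC100153139 was 2.21 ± 0.35 (edgeR adjusted p = 0.00893 and 0.00164). Beside SLA-DOB, LOC100155975 had 7.93, 24.7, 24.7 and 14.7 CPM in pregnant replicates 1 to 4, with replicate 1 lowest as for SLA-DOB, but control replicate 3 (3.45 CPM) and not control replicate 2 (3.53 CPM) was its lowest control. LOC100513097 likewise had 15.5, 36.6, 34.9 and 20.3 CPM in those libraries. Whether reads are shared between these models and the named genes was not tested.

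Among 10167 genes with a symbol, those nearest to SLA-DRA over the 8 libraries were AIF1, a macrophage gene, SLA-DMB, the inflammatory caspase gene CASP1, SLA-DQB1 and PLD4. Nearness was the root mean square distance between log2 levels centred on each gene's own mean, and it was 0.132, 0.142, 0.169, 0.171 and 0.198 log2 units for these 5. Within the set, SLA-DMA and SLA-DOA came next at ranks 6 and 7, SLA-DQA1 at 22, SLA-DRB1 at 97 and SLA-DOB at 263. Nearest to SLA-DOB were CA4, LAP3, TAGAP, SLA-1 and CD72, at 0.406 to 0.433 log2 units. No other class II gene came before rank 28 (SLA-DQA1) for SLA-DOB. These distances are descriptions over 8 libraries, dominated by the difference between groups.

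Of the factors that act with CIITA on class II promoters, 7 of 8 listed had a transcript, and 1 rose and 0 fell. RFX5, a DNA-binding subunit of the RFX complex, had 28.0, 37.3, 34.8 and 38.4 CPM in pregnant replicates 1 to 4, against 13.2, 10.3, 12.7 and 13.2 CPM in control replicates 1 to 4. Its groups were apart, with a log2 change of 1.49 ± 0.15 (edgeR adjusted p = 8.15e-05). NFYC of the CCAAT-binding complex stood at 80.2 ± 10.1 CPM in pregnant and 100.3 ± 20.5 CPM in control animals and did not pass, and neither did the CIITA-binding protein gene ZXDC, at 45.7 ± 4.74 CPM in pregnant and 56.5 ± 7.26 CPM in control animals. The median log2 change of this list was −0.06.

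On the route from interferon gamma to CIITA, 6 of 8 tested genes rose and 0 fell, with a median log2 change of 1.04. IRF1, which activates the interferon-responsive promoter of CIITA, had 318, 505, 538 and 505 CPM in pregnant replicates 1 to 4 and 47.8 ± 6.65 CPM in controls. Pregnant replicate 1 was the lowest pregnant library here too, and the log2 change was 3.29 ± 0.19 (edgeR adjusted p = 4.25e-06). The kinase inhibitor gene SOCS1 rose by 2.41 ± 0.34, PRDM1, a repressor of CIITA in plasma cells, by 1.16 ± 0.20 and IRF2 by 0.99 ± 0.18. The signalling kinase gene JAK1 (0.55 ± 0.22) and USF1 (0.30 ± 0.12) did not pass, with edgeR adjusted p = 0.103 for both, and USF1 passed without control replicate 1 (0.0433). IFNG itself had 4, 13, 5 and 4 reads in pregnant replicates 1 to 4 and 0, 2, 0 and 2 in control replicates 1 to 4, too few to be tested, and it is named here after its values were seen. IFNGR2 matched no transcript and is not analysed here.

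Of 12 tested genes that make peptides or cut the invariant chain, 3 rose and 1 fell, with a median log2 change of 0.37. Cathepsin S (CTSS), the protease that makes the last cuts in the invariant chain, had 153 ± 34.7 CPM in pregnant and 29.5 ± 3.38 CPM in control animals (log2 change 2.37 ± 0.18, edgeR adjusted p = 1.69e-05). IFI30, which opens disulfide bonds of antigens in endosomes, had 272 ± 44.4 CPM in pregnant and 67.0 ± 21.8 CPM in control animals (2.02 ± 0.22). CTSZ rose by 0.95 ± 0.21. The abundant cathepsin B gene CTSB, at 759 ± 66.5 and 566 ± 113 CPM in pregnant and control animals, did not pass (edgeR adjusted p = 0.0821), and passed without control replicate 1 (0.0451). The protease inhibitor gene CST3 did not pass either, at 525 ± 62.0 CPM in pregnant and 329 ± 161 CPM in control animals (log2 change 0.68), and it was at 1.04 and passed without control replicate 1 (edgeR adjusted p = 0.0196) and at 0.44 without control replicate 2. The gene that fell was AP1M1, of the clathrin adaptor complex, at −0.41 ± 0.13 (edgeR adjusted p = 0.047), a call that 12 of the 15 alternatives lost, including the leaving out of any 1 library except control replicate 2.

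Of 8 tested genes of class II surface turnover and of the cytokine MIF, whose receptor is CD74, 3 rose and 0 fell. CD83, which holds class II at the surface of dendritic cells, rose by 1.18 ± 0.30 (9.31 ± 0.792 CPM in pregnant and 4.1 ± 1.76 CPM in control animals, edgeR adjusted p = 0.0161). Of the other two, CD44 and CXCR4, at most 1 passed when any single library other than control replicate 1 was left out, so the count fell to 1 on leaving out control replicate 2, control replicate 4, pregnant replicate 1 or pregnant replicate 2. The median log2 change of this list was −0.18. MIF stood at 155 ± 25.8 and 221 ± 62.1 CPM in pregnant and control animals and did not pass (log2 change −0.51; −0.27 without control replicate 1).

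Costimulatory genes, which decide with class II how a T cell responds, moved in both directions. Of 9 tested, 4 rose and 1 fell. CD40 had 35.8 ± 4.13 CPM in pregnant and 7.91 ± 0.881 CPM in control animals (log2 change 2.18 ± 0.15, edgeR adjusted p = 9.41e-06). The inhibitory ligand gene CD274 (PD-L1) had 2.69, 5.83, 7.48 and 7.69 CPM in pregnant replicates 1 to 4 and 0.295 ± 0.116 CPM in controls (4.30 ± 0.43). The adhesion gene ICAM1 rose by 0.90 ± 0.17. The inhibitory ligand gene VTCN1 fell to 1.7 ± 1.05 CPM in pregnant animals, against 13.5 ± 1.72 CPM in controls (−2.99 ± 0.37, edgeR adjusted p = 0.000323). CD86, at 8.67 ± 2.14 CPM in pregnant and 5.36 ± 1.53 CPM in control animals, did not pass, but it passed without pregnant replicate 1 (edgeR adjusted p = 0.0429) and with DESeq2.

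**Figure D5:**
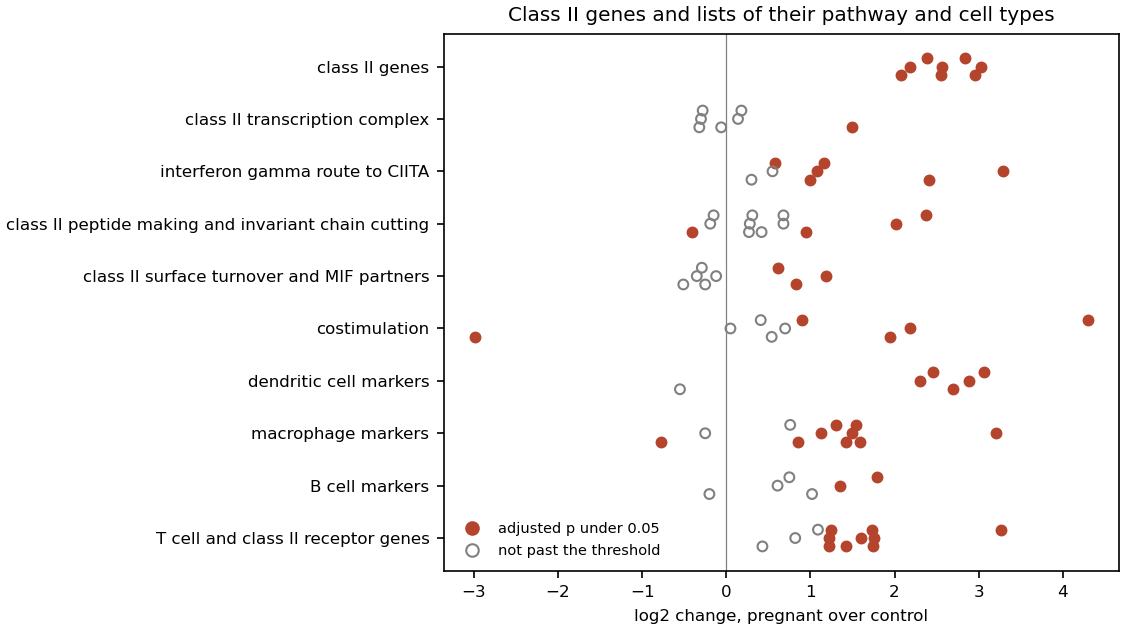
Log2 changes, pregnant over control, of the 8 class II genes in the top row and of 9 lists of related genes below it, with filled points for an adjusted p under 0.05. The class II genes lie together between 2.08 and 3.03, while the transcription complex has only RFX5 past the threshold and costimulation reaches from −2.99 to 4.30.

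Genes that mark cells known to hold class II differed between the lists. Of 11 tested macrophage markers 8 rose and 1 fell, and their summed level was 1175 to 1585 CPM in pregnant and 411 to 738 CPM in control libraries. AIF1 had 29.4 ± 6.23 CPM in pregnant and 3.2 ± 0.957 CPM in control animals (log2 change 3.20 ± 0.26), the complement gene C1QC rose by 1.59 ± 0.23 and the myeloid transcription factor gene SPI1 by 1.31 ± 0.18. The mannose receptor gene MRC1, named after its values were seen, fell to 7.88 ± 1.59 CPM in pregnant animals, against 13.5 ± 3.58 CPM in controls (−0.77 ± 0.22, edgeR adjusted p = 0.0295). ADGRE1, at 15.1 ± 6.08 CPM in pregnant and 18.1 ± 5.85 CPM in control animals, did not pass (−0.25 ± 0.30). Of 13 dendritic cell markers listed 8 had a transcript and 6 could be tested, of which 5 rose and 0 fell. FLT3, a receptor of dendritic cell precursors, rose by 2.46 ± 0.31, the chemokine receptor gene XCR1 by 3.06 ± 0.44 and the maturation gene LAMP3 by 2.88 ± 0.43, all at low levels such as 7.0 ± 2.33 and 0.833 ± 0.562 CPM for XCR1 in pregnant and control animals. The summed dendritic cell list was 94.0 to 122 CPM in pregnant and 92.1 to 166 CPM in control libraries. Most of it was FSCN1, which other cells express too (89.6 ± 17.5 CPM in pregnant and 131 ± 30.9 CPM in control animals). FSCN1 did not pass, but it passed as lower without control replicate 2 or pregnant replicate 1.

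Of 6 tested B cell markers 2 rose and 0 fell, BLNK by 1.79 ± 0.22 and BANK1 by 1.35 ± 0.32. The summed list was 24.8 to 37.0 CPM in pregnant and 10.7 to 15.0 CPM in control libraries. Most of the pregnant sum was BLNK, at 19.7 ± 3.92 CPM in pregnant and 5.68 ± 1.48 CPM in control animals. Defining B cell genes were low, with MS4A1 at 9 to 28 reads in pregnant and 2 to 6 reads in control libraries. CD79B had 4.01 ± 0.564 CPM in pregnant and 4.61 ± 0.359 CPM in control animals. CD79B did not pass (edgeR adjusted p = 0.488). MS4A1 and CD79B were named after their values were seen.

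Of 12 tested T cell genes and receptors for class II, 9 rose and 0 fell, with summed levels of 118 to 191 CPM in pregnant and 36.8 to 88.0 CPM in control libraries. CD4, the coreceptor that binds class II, had 8.49, 13.6, 14.0 and 10.7 CPM in pregnant replicates 1 to 4, against 6.51, 3.44, 2.19 and 5.36 CPM in control replicates 1 to 4 (log2 change 1.42 ± 0.31, edgeR adjusted p = 0.00893; named after its values were seen). The inhibitory class II receptor gene LAG3 did not pass (1.09 ± 0.37, edgeR adjusted p = 0.0579) but passed under 3 of the 15 alternatives. Among these were DESeq2 and the fit without control replicate 1, which held 1.15 CPM (log2 change 1.53, edgeR adjusted p = 0.00881).

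Some summed marker levels stood in the same order as the class II levels between animals of a group, and others did not. Pregnant replicate 1 was the lowest pregnant library for the summed macrophage (1175 CPM), B cell (24.8 CPM, of which BLNK 15.2 CPM) and T cell (118 CPM) lists. Control replicate 1 was the highest control for the macrophage (738 CPM) and T cell (88.0 CPM) lists, and control replicate 2 the lowest at 411 and 36.8 CPM. The summed dendritic cell list was highest in pregnant replicate 1 among the pregnant libraries (122 CPM), and the B cell list was lowest in control replicate 3 among the controls (10.7 CPM), with control replicate 2 at 14.6 CPM. No marker of any list was at 0 in all 8 libraries. The part of these cells in the class II levels was not tested.

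Epithelial, stromal and conceptus lists did not move as one. Of 10 tested epithelial markers 1 rose and 4 fell, with KRT8 at 294 ± 53.0 CPM in pregnant and 1257 ± 252 CPM in control animals, and the summed list was 1762 to 2455 CPM in pregnant and 2348 to 3542 CPM in control libraries. Of 10 stromal and endothelial markers 3 rose and 1 fell (a total of 2 without control replicate 3 or pregnant replicate 2). The fall was that of COL3A1, whose call was lost without control replicate 3, control replicate 4 or pregnant replicate 2, and the summed list, mostly this gene, was 10982 to 16063 CPM in pregnant and 17518 to 21222 CPM in control libraries. Of 6 tested conceptus markers 3 rose and 1 fell. Those that rose were GATA3 (log2 change 1.24 ± 0.27), EOMES (1.44 ± 0.34) and IL1B (2.20 ± 0.45). TFAP2C (0.05 ± 0.30) and HSD3B1 (−0.02 ± 0.47) did not pass, and 4 more had too few reads to be tested. Whether these rises come from conceptus tissue was not tested. KRT8, which fell, is shared by the epithelium. It made up most of the summed 243 to 354 CPM in pregnant and 1041 to 1568 CPM in control libraries. The trophoblast gene CDX2 had 4 reads in pregnant replicate 1 and 0 in the other 7 libraries, and POU5F1 had 10 in pregnant replicate 3 and 0 elsewhere. CDX2 and POU5F1 were named after their values were seen.

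Of 15 genes of the wider class II region that take no part in class II presentation, 2 rose and 5 fell, with a median log2 change of −0.14. TAPBP, a chaperone of class I loading, rose by 0.89 ± 0.16 and RGL2 fell (−0.66 ± 0.14, edgeR adjusted p = 0.00645). The total of 7 calls was 2 to 4 without any 1 library other than control replicate 4. Of 5 neighbours of CIITA and CD74, 2 rose and 0 fell, and TVP23A, a Golgi membrane protein gene, rose by 2.06 ± 0.42 (edgeR adjusted p = 0.00595). The other one, DEXI (0.45 ± 0.14), passed without control replicate 1 and was lost without any other single library.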

How the data were processed

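Deposited by the authors were raw read counts per transcript of a merged assembly, with 1 table for each library, and exon annotations, per the file headers. CASAVA 1.6, TopHat 1.4, Cufflinks 1.3, DESeq and the build Sscrofa10.2 are named in the submitters' processing notes, without their roles, and how reads were counted is not stated there. The library kit does not mark strand. Symbols were looked up in RefSeq's gene list for Sscrofa11.1, whose coordinates were not used (16270 genes by Entrez ID and 103 by accession). Each gene was taken by its transcript of highest mean count.

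For the tests, edgeR 4.0.16 (R 4.3.3) was run with TMM scaling, filterByExpr at a minimum of 10 counts and a robust quasi-likelihood fit on group alone. P-values set the difference between groups against the spread between animals. They were adjusted by Benjamini-Hochberg over 18783 transcripts, with a threshold of 0.05. SE follow from the F statistic. The fit was checked on simulated data. Alternatives were relative log expression and upper quartile scaling, no filter, DESeq2 1.42.0, limma 3.58.1 voom, the replicate number as a block, 1 transcript per gene, and leaving out each library.

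The class II genes, the 14 lists and the tests were chosen with earlier results of these data known. Named were all class II genes and, from each list, up to 4 genes that passed and up to 2 that did not, by smallest p; not every one is described, and some list genes are not reported here. The search for like patterns had been planned for CIITA and CD74, which matched no transcript, and SLA-DRA and SLA-DOB took their place after the data were seen (log2 of CPM plus 0.5, average log2 CPM of at least 1). No sequence was used here.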

Additional observations from a re-analysis of the deposited data

Results flagged for a closer look

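A library stood far from the other 3 of its group by Dixon's criterion (the gap to the nearest library over the range of the group) in 8 of 164 groups of 4 checked over the class II genes and the genes named with them. Chance gives about 1 in 20. None of the 8 concerned a class II gene. Pregnant replicate 1 was low for IRF1, at 318 CPM where the other 3 pregnant libraries had 505 to 538 CPM. Pregnant replicate 4 was low for SOCS1 at 84.1 CPM (others 126 to 133 CPM). Pregnant replicate 3 was high for CCR7 at 7.64 CPM (others 2.41 to 3.11 CPM) and for SIGLEC1 at 45.2 CPM (others 3.23 to 9.56 CPM). Among controls, replicate 1 was high for CD3E at 9.56 CPM (others 3.47 to 3.75 CPM) and for LAG3 at 1.15 CPM (others 0.465 to 0.516 CPM). Control replicate 2 was low for RFX5 at 10.3 CPM (others 12.7 to 13.2 CPM), and control replicate 4 was high for CD3D at 2.66 CPM (others 1.43 to 1.53 CPM).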

How the results depend on the processing

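Of the 8 class II calls, 7 held under all 15 alternatives and SLA-DOB under 14. Same-numbered animals of the groups did not in general deviate together (correlations over transcripts 0.229, −0.15, −0.0217 and 0.0944 for numbers 1 to 4). Only for pregnant replicate 1 was the same-numbered control the closest, so the numbers were not taken as pairs. With the replicate block, SLA-DOB had a log2 change of 1.98 and an edgeR adjusted p of 0.0596 (range over its alternatives 7.2e-06, with DESeq2, to 0.0596), and 1 neighbour of CIITA and CD74 was called. Under this block AP1M1, CD44, DEXI and COL3A1 did not pass, while JAK1 (edgeR adjusted p = 0.0197) and CLDN3 passed as higher and MIF (0.0311) and GRHL2 as lower. Leaving out 1 library each gave 1 to 3 calls for the surface turnover list, 2 to 6 for the genes of the wider region, 1 to 3 for the neighbours of CIITA and CD74 and 2 to 4 for the stromal and endothelial list. Of 93 other genes, 68 kept call and direction under every alternative. Reversed were SIGLEC1 (−0.51 without pregnant replicate 3, up to 1.1 with other libraries left out; 0.76 with all), TFAP2C (−0.12 to 0.4 with single libraries left out; 0.05 with all) and HSD3B1 (0.15 with limma voom, 0.11 with the block, −0.28 to 0.46 with single libraries left out; −0.02 with all), none of which passed in any fit. The cause was not tested. CD74 and CIITA gave no value. PCR reads are not independent molecules, so counts near the detection limit carry more error than counting alone gives.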
